A study of Saccharomyces cerevisiae with 9 samples.

Results

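The hexose transporter genes HXT1, HXT2, HXT3, HXT4, HXT5, HXT6 and HXT7 and the sugar kinase genes HXK1, HXK2 and EMI2 were chosen by name, as the main carriers and kinases that bring glucose into yeast metabolism. Of these 10 genes 9 had a probe set listed on the array, among 5449 S. cerevisiae genes in all. HXT6 (YDR343C) had no probe set listed under its own name. A total of 8 lay above the minimum mean signal for testing, among 4086 genes tested, and HXT5 lay below it.

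RNA was taken from 9 cultures of Saccharomyces cerevisiae strain JPY12, each hybridised to 1 Affymetrix 1-colour expression array. Every culture, wild type included, carried its histone H3 on the plasmid pEMH7 and was grown in rich YPD medium, which contains glucose, to log phase. Wild-type H3 was measured in 3 cultures, and H3 with lysine K42 replaced by alanine (K42A), leucine (K42L) or glutamine (K42Q) in 2 cultures each. The study's design text describes the mutant cultures as biological replicates and the wild-type cultures as reference strains. No source used here gives the state of the chromosomal H3 genes in JPY12. The H3 gene HHT2 gave signals of 1354 to 1826 on the 9 arrays, and HHT1 gave 0.3 to 13.1. A probe set does not read the substitution, so these signals do not check the labels.

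Yeast takes up glucose by facilitated diffusion through carriers of the Hxt family. The low-affinity carriers Hxt1 and Hxt3 serve cells in plentiful glucose, the high-affinity carriers Hxt2, Hxt4, Hxt6 and Hxt7 serve cells in scarce glucose, and Hxt5 is made in slowly growing or stressed cells. The membrane sensors Snf3 and Rgt2 relieve repression of HXT genes by Rgt1, while high glucose represses the high-affinity carriers through Mig1 and its partner repressors. Inside the cell Hxk1, Hxk2 and the glucokinase Glk1 phosphorylate glucose. Hxk2 is the main kinase during growth on glucose, and HXK1 and GLK1 are known to be repressed there. Emi2 is a paralogue of Glk1.

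The deposited values were signal intensities on a linear scale, and the trimmed mean signal was 150.1 on every array. The arrays fell into a pair of sets by the median signal of 1747 probe sets, which served as background. These probe sets were listed for a gene not of S. cerevisiae, or for several genes. In array set 1, with K42L, K42Q and wild-type replicate 1, that median was 1.0 to 1.3. In array set 2, with K42A and wild-type replicates 2 and 3, it was 2.2 to 2.7. The mean signal of the 9 spike-in control probe sets was 826.5 to 943.9 in set 1 and 499.3 to 594.8 in set 2. The labels name no batch, and K42Q against K42L is the single comparison of mutants that lies within 1 set. For each comparison with wild type, values with the array set as a block, a term for the set in the model, are therefore given for the measured genes among the 10 and, where the block gained or lost a call, for the other genes named, and for K42L and K42Q those values rest on wild-type replicate 1 alone. The 5 a-cell mating genes used as markers summed to 4912 to 5940 in wild type, 5239 to 5566 in K42L, 3644 to 4226 in K42Q and 3411 to 3592 in K42A. The 4 alpha-cell genes measured summed to 170.0 to 212.3, 153.0 to 157.8, 257.0 to 283.0 and 335.5 to 369.1 in the same order. Against wild type 4 of 5 a-cell genes were lower in K42A and in K42Q by limma. Of all tested genes 19.7% and 18.2% were lower. Of the alpha-cell genes only SAG1 lay above the minimum signal for testing, and the pheromone gene MF(ALPHA)1 gave 4.8 to 16.1 over all arrays. In a fit with no minimum 53.6% of the 1363 genes below it were higher in K42A. There 40.9% of the 484 genes within 0.5 log2 of the mean signal of HXK1 were lower. The marker differences were not separated from these changes with signal level, and their part in the results below was not tested.

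HXK1, HXT7 and HXT5 had higher signal in K42A and K42Q than in wild type and K42L, and HXT4 rose in K42Q. HXK2 was called lower in K42A, where 51.5% of the 328 genes within 0.5 log2 of its mean signal were lower too. That call was lost with quantile normalization, cyclic loess and spike-in scaling within each array set. HXT1, HXT3 and EMI2, together with HXT2, did not pass the test in any of the 3 comparisons with wild type without the block. In K42A against wild type 2 of the 8 tested genes rose (HXK1 and HXT7) and 1 fell (HXK2), while 22.6% of all tested genes rose and 19.7% fell. In K42Q against wild type 3 of 8 rose (HXK1, HXT4 and HXT7) and 0 fell, against 21.3% and 18.2% of all tested genes. HXT7 entered the 8 through the K42A and K42Q arrays, as its means in wild type and K42L lay below the minimum. That limit holds for each count of the 8 in this report. In K42L against wild type 0 of 8 passed in either direction, against 0.318% and 0.343%. The median log2 change of the 8 was 0.05 in K42A, 0.15 in K42Q and -0.09 in K42L, and over all tested genes it was -0.01, 0.00 and 0.01. With the array set as a block the medians of the 8 were -0.09, 0.40 and -0.02, so the sign in K42A depended on the block. Calls were made by limma at a Benjamini-Hochberg adjusted p under 0.05 over all tested genes. These shares of all genes are large in K42A and K42Q, so the counts of members are described and do not set the members apart.

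**Figure D1:**
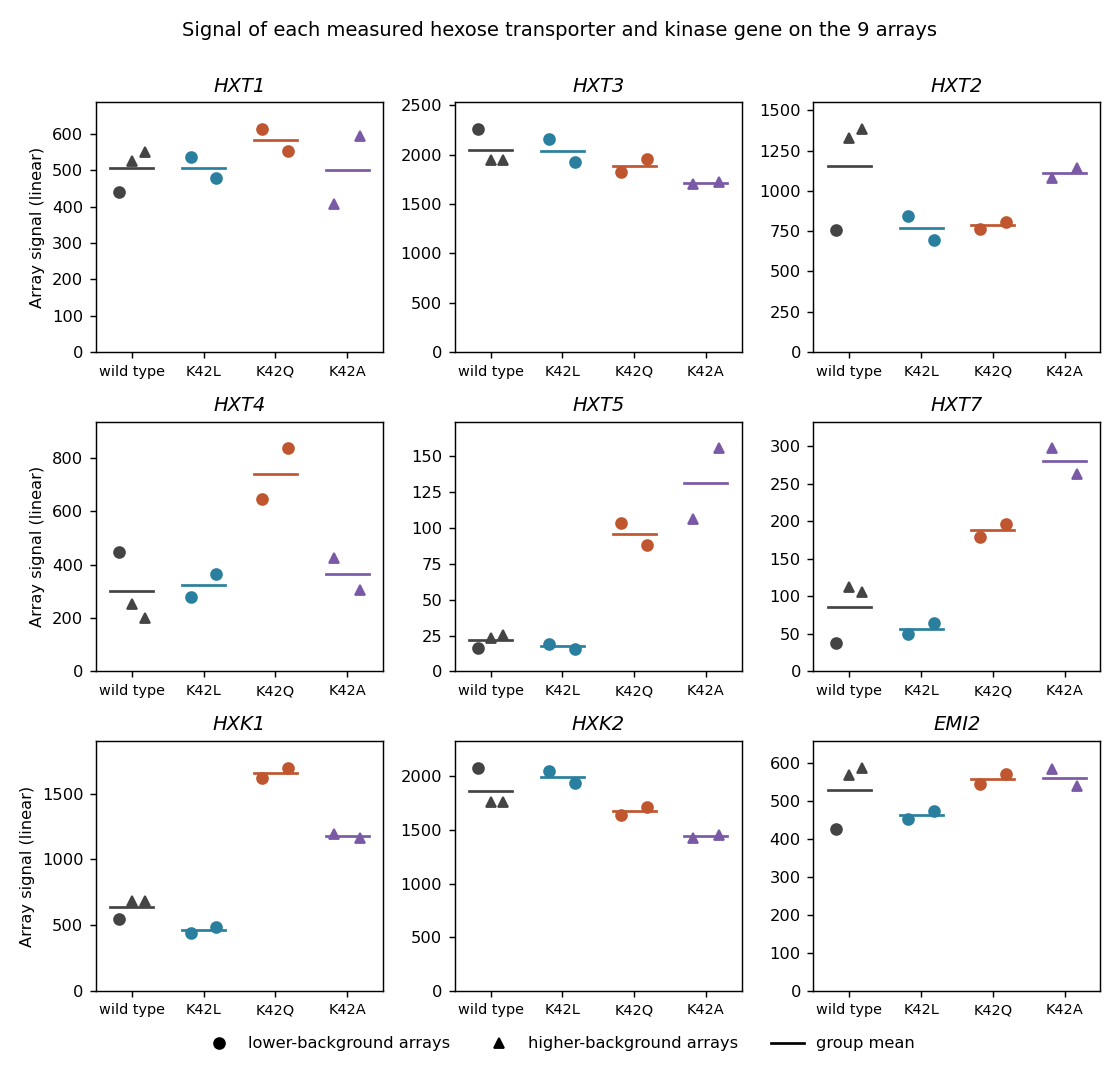
Signal intensity of the 9 measured genes on each of the 9 arrays, on linear axes from 0, with 1 panel per gene, circles for array set 1 (lower background), triangles for array set 2 and lines at the group means. HXK1 lies at 1162 to 1696 on the K42A and K42Q arrays and at 440.0 to 686.7 on the wild-type and K42L arrays, and HXT5 lies at 88.0 to 155.4 against 16 to 25.1.

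HXT5 (YHR096C), the carrier of slowly growing cells, gave signals of 16.7, 23.5 and 25.1 on the wild-type arrays 1, 2 and 3, and 19.3 and 16 on the K42L arrays. On the K42Q arrays it gave 103.5 and 88.0, and on the K42A arrays 106.6 and 155.4. The K42A and K42Q arrays did not overlap with the wild-type or K42L arrays, and every value lay above the 95th percentile of the background, which was at most 9.6. Its mean signal of 42.6 lay below the minimum for testing, 87.0, so its test comes from the fit with no minimum on signal. There HXT5 was higher in K42A by 2.59 ± 0.22 on the log2 scale (SE, 2 against 3 arrays, limma adjusted p = 2.24e-05), a 6.004-fold difference. In K42Q it was higher by 2.15 ± 0.22 (adjusted p = 6.95e-05), a 4.45-fold difference. In K42L the difference was -0.29 ± 0.22 (adjusted p = 0.501). With the array set as a block the differences were 2.41 ± 0.18 in K42A, 2.52 ± 0.22 in K42Q and 0.07 ± 0.22 in K42L. Without a minimum on signal 46.9% of all genes passed in K42A, 43.3% in K42Q and 0.844% in K42L.

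Genes with low signal were higher as a group in K42A and K42Q, and HXT5 is read beside them. Of the 501 genes within 0.5 log2 of the mean signal of HXT5, 56.7% were higher in K42A, with a median change of 0.51 and a 10th to 90th percentile range of -0.08 to 1.60. In K42Q 55.9% were higher, with a median of 0.51 and a 90th percentile of 1.396. The HXT5 changes of 2.59 and 2.15 lay above the 90th percentile of those genes.

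HXT7 (YDR342C) encodes a high-affinity carrier and lies next to HXT6, with 0 protein-coding genes between them in the RefSeq table and a coding length of 1713 bases for both. The HXT7 probe set has a name of the kind that the manufacturer gives to probes shared by several transcripts, and HXT6 is a near-identical copy, so the signal cannot be assigned to HXT7 alone. Its signal was 37.5, 113.2 and 105.3 on wild-type arrays 1, 2 and 3, and 49.9 and 64.6 on the K42L arrays. It was 179.8 and 196.8 in K42Q and 297.2 and 262.7 in K42A. All K42A and K42Q values lay above all wild-type values, and the wild-type array of set 1 lay well below the wild-type arrays of set 2. HXT7 passed the minimum of 87.0 through the K42A and K42Q arrays, since its wild-type mean was 85.3 and its K42L mean 57.3. With no minimum its adjusted p against wild type was 0.00369 in K42A and 0.0227 in K42Q.

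HXT7 rose in K42A by 1.87 ± 0.39 on the log2 scale (SE, limma adjusted p = 0.0051), and its rise with the array set as a block was 1.36 ± 0.12 (adjusted p = 6.4e-06). In K42Q it rose by 1.30 ± 0.39 (adjusted p = 0.0267), and by 2.33 ± 0.15 with the block (adjusted p = 6.6e-07). The K42Q call without the block was lost with cyclic loess (adjusted p = 0.0625), with only the compared groups in the fit (0.0737), with a robust fit (0.0696) and without K42Q replicate 1 (0.107) or 2 (0.127). In K42L the difference was -0.43 ± 0.39 (adjusted p = 0.595), and 0.60 ± 0.15 with the block (adjusted p = 0.102). Of the 1298 genes of like signal, 37.9% were higher in K42A, with a median of 0.18 and a 90th percentile of 0.78, and 35.1% in K42Q, with 0.19 and 0.66. The HXT7 changes lay above both 90th percentiles.

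HXT4 (YHR092C), another high-affinity carrier, gave wild-type signals of 448.1, 251.4 and 200.9 on arrays 1, 2 and 3. It gave 279.3 and 366.7 in K42L, 647.6 and 835.5 in K42Q, and 424.0 and 306.0 in K42A. Both K42Q arrays lay above all others, and the K42A arrays overlapped the wild-type range because of wild-type array 1. HXT4 rose in K42Q by 1.38 ± 0.30 on the log2 scale (SE, limma adjusted p = 0.00576), a 2.60-fold rise. With the array set as a block the rise in K42Q was 0.72 ± 0.21 (adjusted p = 0.0197), and without K42Q replicate 2 it was 1.20 (adjusted p = 0.0587). The K42A difference was 0.35 ± 0.30 (adjusted p = 0.365), and with the block it passed, at 0.68 ± 0.17 (adjusted p = 0.00675). Of the 949 genes of like signal 15.1% were higher in K42Q, with a median of -0.06 and a 90th percentile of 0.40. The K42L difference was 0.18 ± 0.30, and -0.49 ± 0.21 with the block (adjusted p = 0.347).

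HXT2 (YMR011W), a carrier used at low glucose, separated by array set, and within set 2 both K42A arrays lay below both wild-type arrays. Wild-type arrays 1, 2 and 3 gave 756.9, 1329 and 1383, and K42A gave 1082 and 1139. K42L gave 842.5 and 694.2, and K42Q gave 763.6 and 807.4. All 5 arrays of set 1 lay below all 4 of set 2, and wild-type replicate 1 lay 0.84 on the log2 scale below the mean of the other two. Without the block the differences from wild type were -0.01 ± 0.22 in K42A, -0.55 ± 0.22 in K42L and -0.51 ± 0.22 in K42Q, with limma adjusted p of 0.979, 0.255 and 0.0982. With the block they were -0.29 ± 0.08 (adjusted p = 0.0127), 0.015 ± 0.102 (0.96) and 0.05 ± 0.10 (0.703). Array set and the level of HXT2 cannot be told apart without a block.

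The low-affinity carriers HXT1 and HXT3 did not pass the test without the block. HXT1 (YHR094C), induced by high glucose, gave 440.2, 526.3 and 551.3 on wild-type arrays, 537.5 and 478.0 in K42L, 613.7 and 554.4 in K42Q, and 407.6 and 594.5 in K42A. The K42A arrays spanned the range of all but 1 of the other arrays. The log2 differences of HXT1 from wild type were -0.03 in K42A, 0.01 in K42L and 0.21 in K42Q, each with an SE of 0.15 and limma adjusted p of 0.877, 0.981 and 0.298. The 95% intervals ran from -0.38 to 0.31 in K42A and from -0.13 to 0.56 in K42Q, and these data do not distinguish values within them. With the block the HXT1 differences were -0.13 ± 0.14 in K42A, 0.20 ± 0.17 in K42L and 0.41 ± 0.17 in K42Q (adjusted p = 0.435, 0.615 and 0.0691). Within array set 1 alone the K42Q difference passed, at 0.41 ± 0.09 (adjusted p = 0.00383). HXT1 lies next to HXT5 in the RefSeq table, with 0 protein-coding genes between them, and HXT4 lies 1 gene away from HXT1 on the other side.

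HXT3 (YDR345C), the other low-affinity carrier, gave 2260, 1942 and 1952 on wild-type arrays, 2156 and 1922 in K42L, 1823 and 1957 in K42Q, and 1700 and 1721 in K42A. Both K42A arrays lay below all other arrays. The K42A difference was -0.26 ± 0.09 on the log2 scale (limma adjusted p = 0.0517), and -0.19 ± 0.07 with the block (adjusted p = 0.0464). Of the 290 genes of like signal the median K42A change was -0.28, with a 10th to 90th percentile range of -0.40 to -0.16, and HXT3 lay within that range. The K42Q difference was -0.12 ± 0.09 (adjusted p = 0.358), and -0.26 ± 0.09 with the block (adjusted p = 0.0348). In K42L HXT3 lay at -0.01 ± 0.09, and at -0.15 ± 0.09 with the block (adjusted p = 0.509).

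HXK1 (YFR053C), hexokinase 1, had the smallest adjusted p of the 8 tested genes in K42A and in K42Q against wild type. Its signals were 545.8, 679.8 and 686.7 on wild-type arrays, 440.0 and 483.7 in K42L, 1620 and 1696 in K42Q, and 1192 and 1162 in K42A. The K42Q arrays lay above the K42A arrays, and both lay above all wild-type and K42L arrays. HXK1 rose in K42Q by 1.39 ± 0.10 on the log2 scale (SE, limma adjusted p = 1.6e-05), a 2.62-fold rise, and in K42A by 0.89 ± 0.10 (adjusted p = 0.000208), a 1.86-fold rise. With the block the rises were 1.60 ± 0.08 and 0.78 ± 0.06. In both mutants the call held in every alternative run, leave-one-array-out fits included. In K42L the difference was -0.46 ± 0.10 (adjusted p = 0.0932), and -0.24 ± 0.08 with the block (adjusted p = 0.198). Of the 484 genes of like signal, 8.06% were higher in K42A, with a median of -0.17 and a 90th percentile of 0.18, and 8.06% in K42Q, with -0.17 and 0.22.

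HXK2 (YGL253W), the hexokinase of growth on glucose, gave 2080, 1762 and 1760 on wild-type arrays, 2055 and 1934 in K42L, 1636 and 1715 in K42Q, and 1430 and 1454 in K42A. The K42A arrays lay below all others, and both K42Q arrays lay below the wild-type arrays. HXK2 fell in K42A by 0.37 on the log2 scale, with an SE of 0.09 (limma adjusted p = 0.0107). The fall was 0.29 with the block (adjusted p = 0.0026). It was not called with quantile normalization (-0.10, adjusted p = 0.0646), cyclic loess (-0.01, 0.923), spike-in scaling (-0.19, 0.236), or without K42A replicate 1 (0.0683) or 2 (0.066). Of the 328 genes of like signal 51.5% were lower in K42A. Their median change was -0.28, with a 10th to 90th percentile range of -0.40 to -0.14, and HXK2 lay within that range. The K42Q difference was -0.15 ± 0.09 (adjusted p = 0.209), and -0.31 ± 0.08 with the block (adjusted p = 0.00717). In K42L HXK2 lay at 0.10 ± 0.09, and at -0.06 ± 0.08 with the block (adjusted p = 0.773).

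EMI2 (YDR516C), the paralogue of GLK1, gave 426.5, 568.3 and 586.4 on wild-type arrays, 451.5 and 472.2 in K42L, 543.8 and 571.1 in K42Q, and 584.0 and 537.9 in K42A. The wild-type arrays spanned the range of all others. The log2 differences were 0.10 ± 0.12 in K42A, -0.18 ± 0.12 in K42L and 0.10 ± 0.12 in K42Q, with limma adjusted p of 0.526, 0.474 and 0.575. With the block the EMI2 difference was -0.04 ± 0.06 in K42A and 0.12 ± 0.08 in K42L (adjusted p = 0.576 and 0.557). With the block EMI2 was higher in K42Q by 0.39 ± 0.08 (adjusted p = 0.002), a comparison with the 426.5 of wild-type replicate 1.

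**Figure D2:**
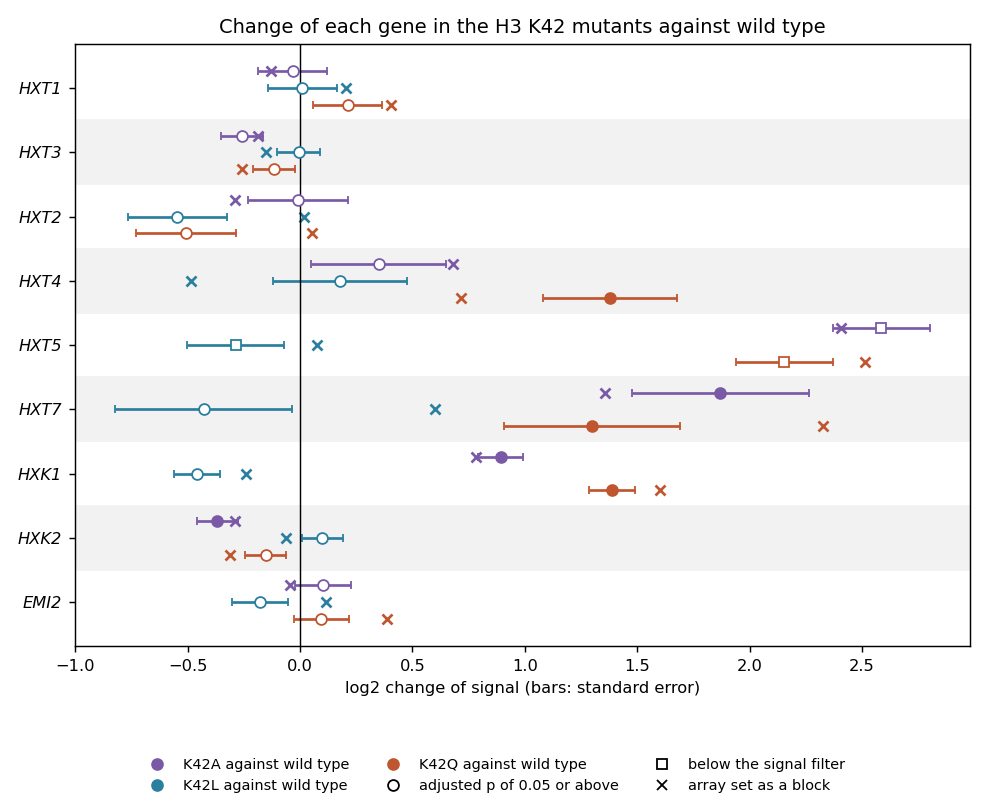
Log2 difference in signal of each gene from wild type in K42A, K42L and K42Q, with bars of 1 SE from limma, filled points at an adjusted p under 0.05, open squares for HXT5 from the fit with no minimum on signal, and crosses for the values with the array set as a block. HXK1 lies at 0.89 in K42A and 1.39 in K42Q, away from 0 in both fits, while HXT2, HXT4 and HXT7 move between the fits. HXT7 moves from 1.30 to 2.33 in K42Q and from -0.43 to 0.60 in K42L with the block.

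With the array set as a block 3 of 8 rose (HXK1, HXT4 and HXT7) and 3 fell (HXK2, HXT2 and HXT3) in K42A, where 54.8% of all tested genes passed in either direction. In K42Q 4 rose (EMI2, HXK1, HXT4 and HXT7) and 2 fell (HXK2 and HXT3), against 43.2%. In K42L 0 passed (0.465%). In the comparison of K42L with wild type the removal of wild-type replicate 1 made 6 calls. Those were HXK2 (0.18) and HXT4 (0.51) higher, and HXK1 (-0.57), HXT7 (-0.94), EMI2 (-0.32) and HXT2 (-0.83) lower on the log2 scale. That fit compares K42L arrays of set 1 with wild-type arrays of set 2, so mutant and array set cannot be told apart in it. Over all genes the K42L counts reached 689 higher and 675 lower among the alternatives, from 13 and 14 in the main fit. The 6 calls are therefore described and not read as a result about these genes.

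The mutants were also compared with each other. K42Q against K42L lies within array set 1, whose background and spike-in ranges are given above. There 3 of 8 genes were higher in K42Q and 0 lower, against 16.7% and 14.8% of all tested genes. HXK1 was higher by 1.85 ± 0.11 on the log2 scale (SE, 2 against 2 arrays, limma adjusted p = 5.1e-06), HXT7 by 1.73 ± 0.43 (adjusted p = 0.0145) and HXT4 by 1.20 ± 0.33 (adjusted p = 0.0215). HXT5, in the fit with no minimum, was higher by 2.44 ± 0.24. The HXT4 call was lost without any 1 of the 4 arrays (adjusted p = 0.0509 to 0.138) and in a robust fit (0.0549), and the HXT7 call without K42L replicate 1 (0.1), K42Q replicate 1 (0.0698) or K42Q replicate 2 (0.0763). HXT2 differed by 0.04 ± 0.24, with a 95% interval of -0.51 to 0.58, and HXT3 by -0.11 ± 0.10. With the block 4 were higher and 1 lower (49.6%), HXK2 at -0.25 (adjusted p = 0.00651) and EMI2 at 0.27 (0.00392) being the genes added.

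K42A against K42L and K42A against K42Q cross the array sets. With the block their values rest on wild-type replicate 1, the only wild-type array of set 1. In K42A against K42L 2 of 8 were higher and 1 lower, against 22.1% and 21.9% of all genes. HXT7 was higher in K42A by 2.30 ± 0.43 on the log2 scale (limma adjusted p = 0.00311), or 0.76 with the block. HXK1 was higher by 1.35 ± 0.11 (adjusted p = 4.1e-05). HXK2 was lower, at -0.47 ± 0.10 (adjusted p = 0.00568). That call was lost with the block (-0.23, 0.102), with cyclic loess (-0.14, 0.195), with spike-in scaling (0.0605) and without K42L replicate 1 (0.0529). With the block 3 genes were higher, HXT4 at 1.17 being the gene added, and 0 lower (32.6%). HXT5, with no minimum on signal, was higher in K42A than in K42L by 2.87 ± 0.24 and differed from K42Q by 0.43 ± 0.24 (adjusted p = 0.227). With the block these were 2.33 ± 0.29 and -0.11 ± 0.29. In K42A against K42Q 0 of 8 were higher and 1 lower, against 9.96% and 8.17%. That gene was HXK1, at -0.50 ± 0.11 (adjusted p = 0.0182), and the call was lost without any 1 array of the mutants (0.0699 to 0.113). With the block 3 were lower (18.6%), HXK1 at -0.82, HXT7 at -0.97 and EMI2 at -0.43. HXT4 lay at -1.03 ± 0.33 (adjusted p = 0.0562) and at -0.03 with the block. HXT7 lay at 0.57 ± 0.43 without the block, so the order of K42A and K42Q was not settled for HXT7, and neither was it for HXT5. HXT2 also changed sign, from 0.54 ± 0.24 to -0.30 with the block in K42A against K42L (adjusted p = 0.0985 and 0.101) and from 0.50 ± 0.24 to -0.34 against K42Q (0.171 and 0.0944).

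**Figure D3:**
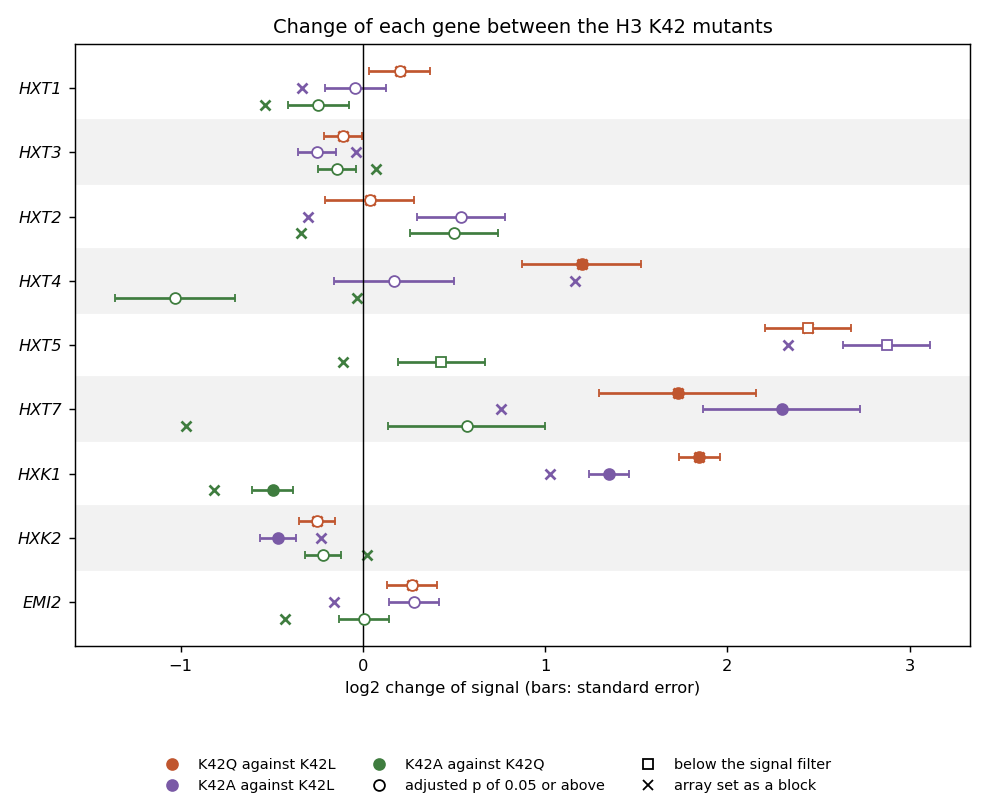
Log2 difference in signal between mutants for each gene, with bars of 1 SE from limma, filled points at an adjusted p under 0.05, and crosses for the values with the array set as a block, which lie under the points for K42Q against K42L. HXK1 in K42Q against K42L, at 1.85, has the same value in both fits, and HXT7 in K42A against K42Q changes sign from 0.57 to -0.97.

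**Figure D4:**
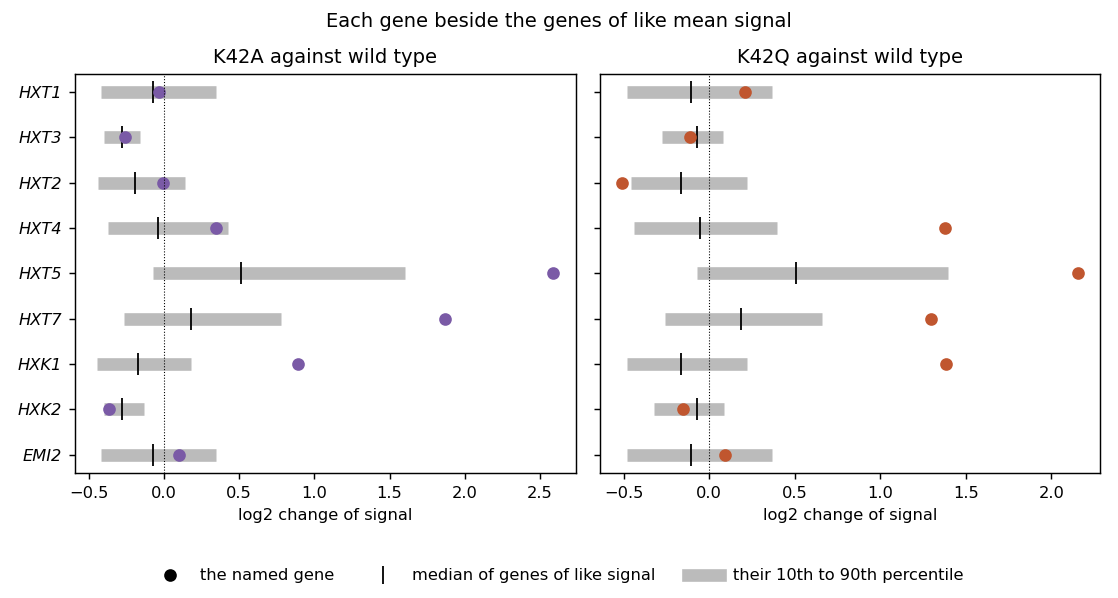
Change of each gene in K42A and K42Q against wild type on the log2 scale, beside the median and the 10th to 90th percentile range of all genes within 0.5 log2 of its mean signal. HXK1, HXT7 and HXT5 lie above the range in both mutants, HXT4 at 1.38 in K42Q lies above it, and HXK2 at -0.37 in K42A lies within it.

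The remaining hexose transporters and pathway genes were read from 6 lists. In K42L against wild type 0 tested genes of these lists passed other than ADH2. The shares of all tested genes to set beside the list counts are those above, 22.6% higher and 19.7% lower in K42A and 21.3% and 18.2% in K42Q, and the counts do not set a list apart. Of 11 other hexose transporter genes 9 had a probe set and 0 lay above the minimum for testing. Without that minimum 7 of the 9 were higher in K42A, with a median of 1.26, and 4 of 9 in K42Q, with a median of 0.95, while 0 passed in K42L by limma (median -0.69). Over all genes in that fit the medians were 0.08 in K42A and K42Q and 0.02 in K42L. Over the 1363 genes below the minimum alone they were 0.54 in K42A, 0.45 in K42Q and 0.05 in K42L. The probe sets of HXT9, HXT15 and HXT17 have names of the shared kind described for HXT7, so their signals may not come from those genes alone. HXT9 gave 30.3 to 259.6 over the 9 arrays and HXT11 gave 7.8 to 68.6. Like HXT5 these are genes of low signal, and 53.6% of the 1363 genes below the minimum were higher in K42A and 49.5% in K42Q.

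The sensing genes and Rgt1 gave 7 tested genes of 10, of which 2 rose and 1 fell in K42A, 2 rose and 2 fell in K42Q and 0 passed in K42L, with medians of 0.08, 0.00 and 0.06. RGT1, the repressor of HXT genes, rose by 0.72 ± 0.10 in K42A (limma adjusted p = 5.0e-04) and by 0.45 ± 0.10 in K42Q (adjusted p = 0.00564). STD1, a regulator of Rgt1, fell by 0.45 in K42Q (adjusted p = 0.00134), a call lost with spike-in scaling (0.083). STD1 lay at -0.16 in K42A (0.105), and passed there with the block (-0.20, 0.0241). GRR1, a ubiquitin ligase subunit of the sensing pathway, lay at 0.43 ± 0.12 in K42Q (0.0215), but at 0.22 with the block (0.152), and its call was also lost with cyclic loess (0.0803), with the compared groups alone (0.0561) and without K42Q replicate 1 (0.113) or 2 (0.0959). In K42A GRR1 lay at 0.32 (0.0609), and passed with the block (0.42, 0.00398). The sensor genes SNF3 and RGT2 lay below the minimum, at 66.8 to 92.0 and 65.9 to 91.6. MTH1, a partner of Rgt1, was not tested either and went with the array set in wild type, at 101.6 on array 1 and 34.7 and 30.8 on arrays 2 and 3. With no minimum on signal MTH1 lay at 0.11 in K42A (limma adjusted p = 0.835), and passed with the block (0.66, 0.000591).

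The Snf1 and Mig repression list had 10 tested genes of 15, of which 2 rose and 1 fell in K42A and 3 rose and 3 fell in K42Q. TOS3, a kinase that acts on Snf1, rose by 0.97 ± 0.11 in K42A and 0.47 ± 0.11 in K42Q, where the call was lost with quantile normalization (limma adjusted p = 0.109), cyclic loess (0.16) and without K42Q replicate 1 (0.0849). MIG2, a repressor induced by glucose, fell by 0.42 in K42A (adjusted p = 0.00884), a call lost with spike-in scaling (0.193) and without K42A replicate 1 (-0.26, 0.0761). In K42Q MIG2 lay at -0.18 (0.181), and passed with the block (-0.30, 0.0433). MIG1, the main glucose repressor, lay at 0.24 ± 0.08 in K42Q (0.0335), but at 0.18 with the block (0.127). Its call was also lost with quantile normalization (0.171), median centring (0.076), cyclic loess (0.462), the compared groups alone (0.0797), without either K42Q replicate (0.0587 and 0.24) and without wild-type replicate 2 (0.0765) or 3 (0.105). REG1, a phosphatase subunit that counters Snf1, rose by 0.41 ± 0.08 in K42Q, and lay at 0.19 in K42A (0.0768), where it passed with the block (0.22, 0.0216). MIG3 gave 49.1 to 86.9 and was not tested in the main fit. With the block and no minimum MIG3 lay at 0.07 in K42A, -0.03 in K42L and 0.64 in K42Q. The cyclic AMP list, 13 tested of 15, had 4 higher and 2 lower in K42A and 3 and 2 in K42Q. PDE1, a phosphodiesterase, rose by 0.62 and 0.68 ± 0.09 in K42A and K42Q, RAS1, a Ras GTPase gene, fell by 0.58 and 0.57, and GPA2, a G protein alpha subunit gene, rose by 0.70 ± 0.10 in K42A.

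Of the glucose-repressed list 4 of 15 genes were tested, 2 higher in K42A and 3 in K42Q, with medians of 0.18 and 0.50. With no minimum 12 of the 14 with a probe set were higher in K42A and 0 lower (median 0.91), and 11 were higher and 1 lower in K42Q (median 1.121). That stands beside 46.9% and 43.3% of all genes in either direction, and 53.6% and 49.5% higher among genes below the minimum. The median changes of the genes below the minimum were 0.54 in K42A and 0.45 in K42Q. PCK1, of gluconeogenesis, rose by 1.82 ± 0.14 in K42A and 1.57 ± 0.14 in K42Q. It passed the minimum through the arrays of those mutants, since its wild-type mean was 65.2 and its K42L mean 60.3. ADH2, an alcohol dehydrogenase, rose by 0.78 ± 0.13 in K42Q. In K42A it lay at 0.41 ± 0.13 (limma adjusted p = 0.033), and the call was lost with cyclic loess (0.0859), the compared groups alone (0.0793) and without K42A replicate 2 (0.26, 0.258). In K42L ADH2 lay at -0.75 ± 0.13 (0.0451), but at -0.50 with the block (0.0821). That call was also lost with spike-in scaling (0.0801), 16 added before log2 (0.0509), no trend (0.0514), the compared groups alone (0.167), without K42L replicate 1 (0.468) or 2 (0.287) and without wild-type replicate 2 (0.149) or 3 (0.155). SUC2, the invertase, lay at 0.22 ± 0.07 in K42Q (0.034) and at -0.05 in K42A. The K42Q call was lost with the block (0.17, 0.117), within the set (0.0874), with median centring (0.074), the compared groups alone (0.0737), without K42Q replicate 1 (0.104) or 2 (0.176) and without wild-type replicate 2 (0.0512) or 3 (0.114).

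Of the other sugar phosphorylation genes 10 were tested of 11, 4 higher and 4 lower in K42A and 4 higher and 2 lower in K42Q. PGM2, a phosphoglucomutase, rose by 1.15 ± 0.10 and 2.22 ± 0.10, and PGM1, its paralogue, fell by 0.81 and 0.88. FBP26, a phosphatase gene, rose by 0.93 ± 0.21 in K42A, a call lost without K42A replicate 2 (0.85, limma adjusted p = 0.0688). The glucokinase GLK1 gave 1574, 1271 and 1320 on wild-type arrays, 1349 and 1335 in K42L, 1845 and 1977 in K42Q and 1465 and 1462 in K42A. It rose in K42Q by 0.47 ± 0.10 (adjusted p = 0.00444) and lay at 0.08 ± 0.10 in K42A (adjusted p = 0.509). In K42A GLK1 passed with the block (0.18, 0.0299), within the set (0.0124), with quantile normalization (0.37, 0.000324) and with cyclic loess (0.41, 0.00464).

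**Figure D5:**
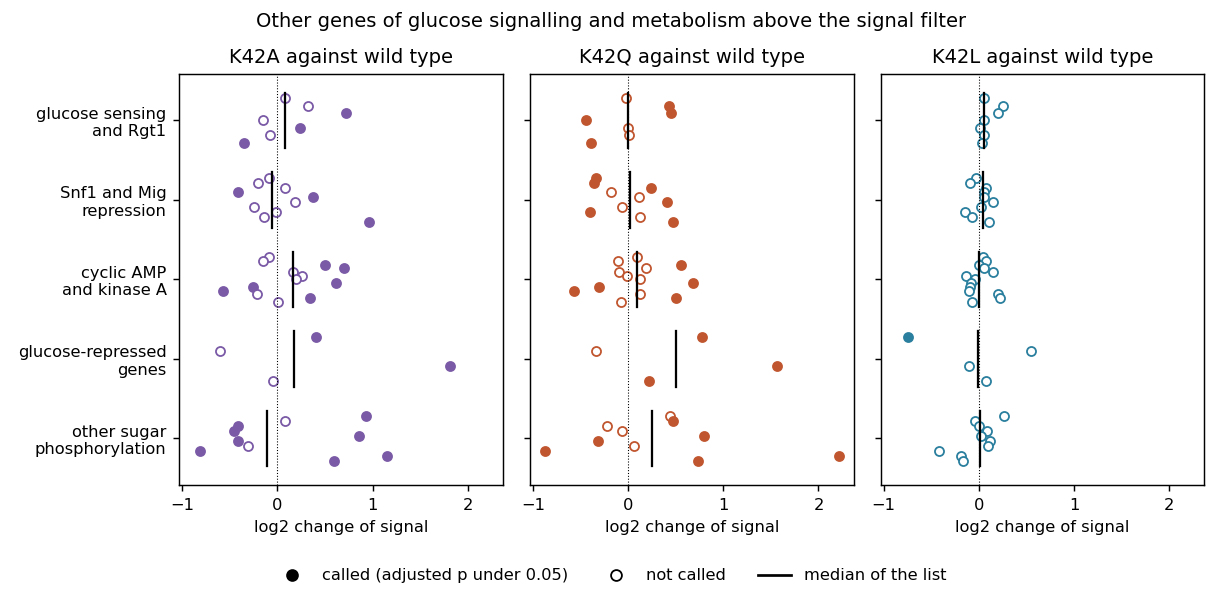
Log2 change of every tested gene of the 5 pathway lists with tested genes, in K42A, K42L and K42Q against wild type, with called genes filled and each list's median as a bar. PGM2 at 2.22 in K42Q and PCK1 at 1.82 in K42A lie at the upper end, and PGM1 lies at -0.81 and -0.88.

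For each tested gene the genes of most like signal over the 9 arrays were found by the Pearson correlation of log2 signal, as a description over arrays that share group and array set. HXK1 followed HSP82 (r = 0.996), SSA4 (0.994) and HSP26 (0.9923), which encode heat shock proteins. HXK2 followed the ribosomal protein genes RPL37B (0.9928), RPL13A and RPL22A, and HXT3 followed ARF1 (0.9884), RPP2B and RPS24B. HXT7 followed PRY3 (0.9924), BOI2 and YBR062C, HXT4 followed COA6 (0.9656), YDR239C and QCR9, and HXT2 followed VTC4 (0.9806), PRE1 and MCD4. EMI2 followed MRPL13 (0.9757), VTC3 and DSE4. HXT1 followed MET10 at a lower value (0.8839), with RIA1 and BFR2 next.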

How the data were processed

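RNA of 9 cultures was measured with 1 array each. The authors deposited linear signal intensities, made with GCOS 1.4 and MAS5 per the submitters' processing notes; for MAS5 the version, and for the signals the scaling target, is not given in the sources used here. Per the labels' protocols, total RNA was amplified once and labelled with biotin. No other scaling was applied before taking log2, for which 126 zeros among 98352 values became 0.1. Of 10928 probe sets 5498 had 1 S. cerevisiae gene, 1747 another listed gene or several, 3517 none, and 166 were controls. The brightest probe set stood for each of 5449 genes, and 4086 passed a minimum at the 25th percentile of the mean log2 values, equal to a signal of 87.0.

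Comparisons used limma (version 3.58.1, R 4.3.3), with 1 mean per group over all 9 arrays, an intensity trend and Benjamini-Hochberg adjustment over the 4086 genes. The fit without the block was tested on simulated data with independent noise and no array-set effect. That test says nothing about the effect of array set. The number of arrays, 2 or 3 a group, limits the precision. The array sets were read from the background, not from the labels, and the block and within-set fits without a minimum on signal were added after seeing the data. The 10 genes and the lists were chosen with earlier results of these data known. All 10 members were named, with the 3 largest called changes of each list, GLK1, SNF3, RGT2, MTH1, STD1, RGT1, MIG1, MIG2, MIG3 and SUC2, and the 3 genes of most like signal. Among same-numbered replicates of different groups, deviations from the group means correlated at -0.298 to 0.178 in 12 pairs, 2 of them over 0.1, so the numbers were not taken to pair the samples. Alternatives were other scalings (quantile, median centring, cyclic loess, spike-in controls within each array set), minimum signals, a robust fit, no trend and the compared groups alone. Others were array set and replicate number as blocks, and each array left out. Spike-in scaling, as used throughout, left the difference in spike-in signal between the array sets in place.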

Additional observations from a re-analysis of the deposited data

How the results depend on the processing

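Counts are of the 8 tested genes, or of 9 where HXT5 enters with no minimum on signal. The share of all genes called moved as well. In K42A against wild type 54.8% were called with the block and 46.9% with no minimum, against 22.6% higher and 19.7% lower in the main fit. In K42Q these were 43.2% and 43.3%, against 21.3% and 18.2%. Shares for most other alternatives are not given here, so moves in the counts are not read as results about the members. In K42A against wild type the count higher, 2, was 1 with the minimum at the median and 4 with the array set as a block, or within the set, with no minimum. The count lower, 1, was 0 with quantile normalization, cyclic loess and spike-in scaling, 2 with median centring, no minimum and no trend, and 3 with the array set as a block or within the set, with or without the minimum. In K42Q against wild type the count higher, 3, was 5 within the set and with the block and no minimum, and 6 within the set with no minimum; the count lower, 0, was 2 with the block and 1 within the set, with or without the minimum. In K42A against K42L the count higher, 2, was 1 with the minimum at the median and 4 with quantile normalization, spike-in scaling, the compared groups alone, and the block with no minimum; the count lower, 1, was 0 with cyclic loess, spike-in scaling and the block, with or without the minimum, and 2 with the compared groups alone. In K42Q against K42L the count higher, 3, was 5 with the compared groups alone, within the set and with the block and no minimum, and 6 within the set with no minimum; the count lower, 0, was 1 with the compared groups alone, the block and within the set, with or without the minimum. In K42A against K42Q the count higher, 0, was 2 with the compared groups alone; the count lower, 1, was 2 with quantile normalization and spike-in scaling and 3 with the compared groups alone and with the block, with or without the minimum. With 1 array left out, the counts higher and lower ran over 2 to 3 and 0 to 3 in K42A against wild type, 0 to 2 and 0 to 4 in K42L, 1 to 3 and 0 to 1 in K42Q, 2 to 2 and 0 to 1 in K42A against K42L, 1 to 2 and 0 to 0 in K42Q against K42L, and 0 to 0 and 0 to 0 in K42A against K42Q. HXT5 was not refitted with arrays left out.

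Where the value was called in either fit, signs turned for HXT3 in K42Q against wild type with cyclic loess (0.21) and in K42A against K42L with quantile normalization (0.13), for HXT7 (-0.97) and EMI2 (-0.43) in K42A against K42Q with the block, with or without the minimum, and for MTH1 with no minimum, at -0.37 in K42Q against wild type within the set and 0.90 and 1.03 with the block in K42A against K42L and K42Q. Among values called in neither fit, 12 of 48 values of the tested genes turned sign with the block, among them HXT2, HXT4, HXT7 and EMI2 in K42L against wild type, and 10 with cyclic loess. The cause was not tested. The replicate numbers were not taken to pair the samples; with a replicate block the count lower in K42A against K42Q was 2, with HXT4 at -1.03 (limma adjusted p = 0.0415), the other member counts did not move, and the calls of GRR1, MIG1 and SUC2 in K42Q and ADH2 in K42L were lost. Over all genes and alternatives the counts higher and lower ran from 422 to 1916 and 132 to 1222 in K42A against wild type, 0 to 689 and 0 to 675 in K42L, 407 to 1591 and 196 to 1137 in K42Q, 456 to 1587 and 260 to 1188 in K42A against K42L, 321 to 1722 and 178 to 1057 in K42Q against K42L, and 64 to 656 and 59 to 635 in K42A against K42Q. Fits with 1 array left in a group assume that it varies like the others. Fits with the array set as a block rest on 1 wild-type array for K42L and K42Q against wild type. The same array carries the block for K42A against K42L or K42Q.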
